A study of Rattus norvegicus with 24 samples.

Results

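Reference genes nested in same-strand hosts were Ensembl genes whose start to end lay fully inside another Ensembl gene on the same chromosome and strand. They were found from the positions in the table of 1 Control library, and genes of the mitochondrial genome and of the protocadherin clusters were to be left out, which removed 0 genes. The rule gave 1813 of the 32883 reference genes, or 5.51%, of which 1186 were under 200 bp and 627 were 200 bp or longer. The host of each was the shortest gene that held it. The animals were 24 adult Sprague-Dawley males of a study of inhaled tungsten particles, and poly(A) RNA of the frontal cortex of each was sequenced as 1 library. The Control group (libraries 49 to 56) breathed 0 mg/m3, the Low group (libraries 57 to 64) 5 mg/m3 and the High group (libraries 65 to 72) 80 mg/m3, with 8 rats each. All libraries were stranded. The authors deposited 1 StringTie table per rat, which lists the coverage of each gene, its mean read depth per base. Here coverage was divided by the sum over the reference genes of the library and multiplied by 1000000, and this scaled coverage is the level given below unless stated. It is a value per base, so genes of different length can be compared on it. Errors are SD over the 8 libraries of a group.

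Many short RNAs are made from the transcripts of longer genes. Most small nucleolar RNAs (snoRNAs) of mammals lie in introns of genes for ribosomal proteins and translation factors, and they are released from the excised intron, while many microRNA hairpins are cut from introns or exons of a host transcript by Drosha and then by Dicer. Box C/D snoRNAs guide ribose methylation and box H/ACA snoRNAs guide pseudouridylation of ribosomal RNA, and a mature microRNA finds its targets mainly through the bases of its seed. These RNAs carry no poly(A) tail when mature, so a library selected for poly(A) holds little of the mature form and its reads over such genes can also come from the host transcript. Other nested genes are longer protein-coding genes that share a transcript with their host, as in the bicistronic loci of Snurf with Snrpn and of Cers1 with Gdf1. Positions alone define nesting here, and whether a nested gene lies in an exon or an intron of its host was not analysed here.

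The 10 microRNA genes with the highest mean among the nested genes stood for both patterns described below, and their mature sequences are shown for that reason. RefSeq (GRCr8) held a hairpin for 118 of the 137 nested microRNA genes by symbol, and for 113 of these it had the length of the gene in the tables. The seed, bases 2 to 8 from the 5′ end, is in capitals, and no seed occurred more than once among these sequences. No mature sequence was matched for Mir3577.
rno-miR-3064-3p: uUUGCCACacugcaacaccuuaca
rno-miR-186-5p: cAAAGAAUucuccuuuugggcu
rno-miR-186-3p: gCCCAAAGgugaauuuuuugg
rno-miR-2985: uGUUAUAGuaucccaccuaccc
rno-miR-935: cCAGUUACcgcuuccgcuaccgc
rno-miR-6321: uACUGCAGugaguucuaugaagc
rno-miR-671: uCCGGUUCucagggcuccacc
rno-miR-3583-5p: aGCAUGAAgaguucagaucacguu
rno-miR-3583-3p: cCUGACUUcucucuucaugcag
rno-miR-678: gUCUCGGGgcaaggacuggagg
rno-miR-3542: aAGGCUCUucuuuccuugcag
What the tables measured is the depth over the whole gene, which had the length of the RefSeq hairpin for these microRNAs except Mir671 (98 bp, with a hairpin of 81 bases). The hairpin is shown for Mir186 and Mir935 with the mature parts in capitals.
Mir186: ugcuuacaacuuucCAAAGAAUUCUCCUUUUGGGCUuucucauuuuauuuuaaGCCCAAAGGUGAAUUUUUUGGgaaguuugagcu
Mir935: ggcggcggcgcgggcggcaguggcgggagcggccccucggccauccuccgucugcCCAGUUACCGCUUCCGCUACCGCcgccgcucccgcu

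The tables of the groups were not of one kind. Besides the reference genes, Control tables listed 46334 to 159573 assembled loci and High tables listed 50235 to 64010, while every Low table listed 0. Exposure to 5 mg/m3 and this difference between tables therefore cannot be told apart in any comparison with Low. Within groups, Control library 56 (159573 assembled loci) and Low libraries 63 and 64 stood apart over the short nested genes. Results are also given without libraries 56 to 62. This leaves out Control 56 but keeps Low 63 and 64, as the only Low libraries. Leaving out Low 63 and 64 instead was a separate alternative, given with the effects of processing. Coverage summed over the reference genes and divided by 1000000 was 1.67 to 2.82 for Control, 1.64 to 3.07 for Low and 1.77 to 2.67 for High. The tables hold no read counts per gene, so the counting error of a gene is unknown. All 5 markers of cortical excitatory neurons were above 0 in every library, with summed levels of 1007 to 1927 in Control, against 1204 to 1863 in Low and 750 to 1877 in High. Tissue content was not shown to be uniform. For 6 markers of striatal medium spiny neurons the sums were 376 to 880, 255 to 648 and 173 to 1432. The median sum of 5 immediate early genes was 332 in Control, 615 in Low and 250 in High. Other marker lists are not reported here. Positions are those of the tables. The submitters' processing notes name mRatBN7.2, whereas positions on chromosome 1 reached 282724300 and the clone names starting with AABR07 belong to an earlier assembly, so the build of the positions was not settled.

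Short nested genes had a median length of 106 bp and sat in hosts with a median length of 42307 bp. By name, 538 of the 1186 carried only the name of a sequence clone, 268 were other small structured RNAs (spliceosomal U RNAs, 7SK, 7SL, 5S, Y and the like), 160 had no name, 137 were microRNAs and 75 were small nucleolar or Cajal body RNAs. Of the 627 longer ones, 308 had clone names, 186 had gene symbols, 64 were other small structured RNAs and 59 had LOC or RGD numbers. U3, a small nucleolar RNA, was counted by its name with the other small structured RNAs. The 1813 nested genes had 1347 distinct hosts, and 1107 of these hosts held 1 nested gene. The hosts with the most were Sfmbt2 with 26, then LOC298111 and Arhgap45 with 12 each and Ighm with 11. Of the hosts, 1084 matched a RefSeq symbol, 1075 of them as protein coding, and 28 were ribosomal protein genes. Many nested genes were silent in these tables, since 171 of the short and 108 of the longer ones were listed at 0 in all 24 libraries.

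The short nested genes together held 0.815% to 0.983% of reference coverage in Control (median 0.854%) and 0.719% to 0.906% in High (median 0.844%), but 0.165% to 0.390% in Low (median 0.180%). No Low library reached the lowest Control or High library. Low libraries 57 to 62 lay between 0.165% and 0.191%, while Low 63 held 0.390% and Low 64 held 0.373%. A few abundant genes weigh heavily in these sums. Means in Control and Low were 934 and 0.387 for a gene in Actg1, and 857 and 901 for a gene in Rpl19. A gene in a Metazoa_SRP gene and another in Rn7sl1 had 977 and 976 in Control. In Low this pair had 0.458 and 0.457, and both are uncertain as single genes, as described below. The longer nested genes differed less, with 0.733% to 0.845% in Control, against 0.570% to 0.689% in Low and 0.743% to 0.816% in High, again without overlap of Low with the other groups. In bulk tissue, fewer cells with a transcript and less of it per cell cannot be told apart. The hosts of the nested genes held 5.59% to 6.59% in Control, against 5.95% to 6.94% in Low and 5.72% to 6.38% in High, and these ranges overlapped.

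**Figure D1:**
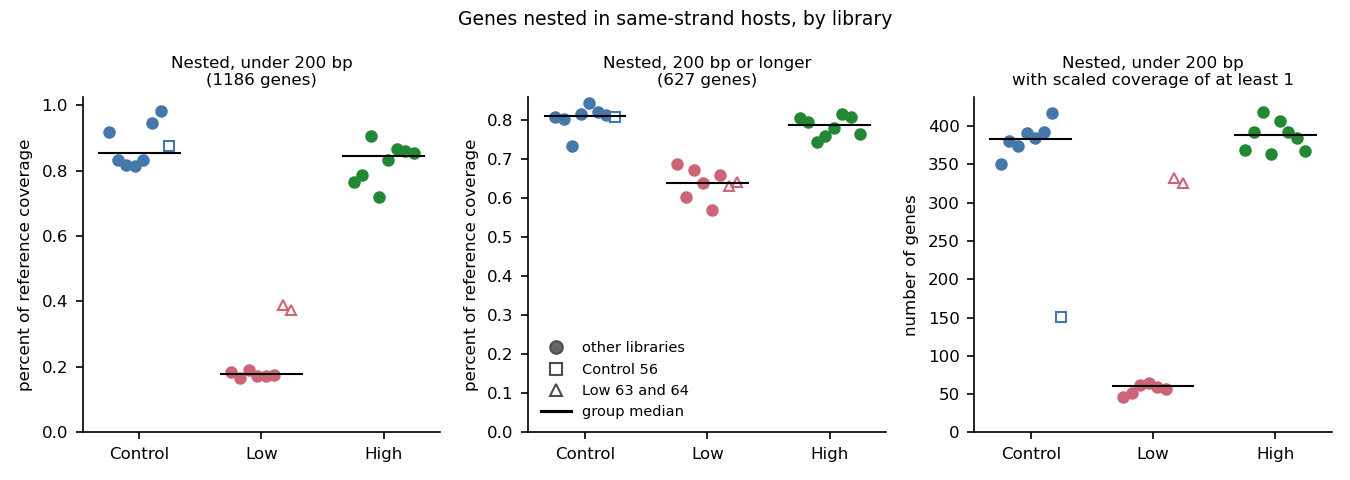
Genes nested in same-strand hosts in each library, by group. The left and middle panels give the percent of reference coverage held by the 1186 nested genes under 200 bp and by the 627 of 200 bp or longer, and the right panel the number of short nested genes with a scaled coverage of at least 1. Points are libraries, lines are group medians, the open square is Control 56 and the open triangles are Low 63 and 64. In the left and middle panels every Low library lies below every Control library, and in the right panel Control 56 (151 genes) lies apart from Control 49 to 55 (350 to 417).

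The number of short nested genes with a scaled coverage of at least 1 split the libraries differently from their summed coverage. It was 350 to 417 in Control 49 to 55 and 364 to 419 in High, but only 151 in Control 56. Low 57 to 62 had 46 to 65 such genes, and Low 63 and 64 had 333 and 326. Control 56 thus held as much summed coverage as the other Control libraries (0.874%) in fewer genes. Among the 3435 genes under 200 bp that were nested on neither strand, the number was 286 to 319 in Control 49 to 55, 159 in Control 56, 116 to 140 in Low 57 to 62, and 308 and 284 in Low 63 and 64. Control 56 and Low 57 to 62 were therefore low there too.

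The nested genes were also set against their hosts. Among 733 short nested genes with a host mean of at least 10, 35 to 47 per Control library and 40 to 48 per High library had 50% or more of the level of their host, against 7 to 13 per Low library. For 205 longer pairs the numbers were 43 to 50 in Control, against 26 to 32 in Low and 41 to 47 in High. Most pairs were far below their host in every group, with a median log2 ratio of nested to host, with 1 added to both, of -3.19 in Control, against -3.86 in Low and -3.07 in High for the short genes. For the 627 longer genes it was -0.12 in Control, against -0.13 in Low and -0.11 in High. With 1 added, pairs with both genes near 0 have a ratio near 0, so these medians do not show equal levels. The ratio carries no test.

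**Figure D2:**
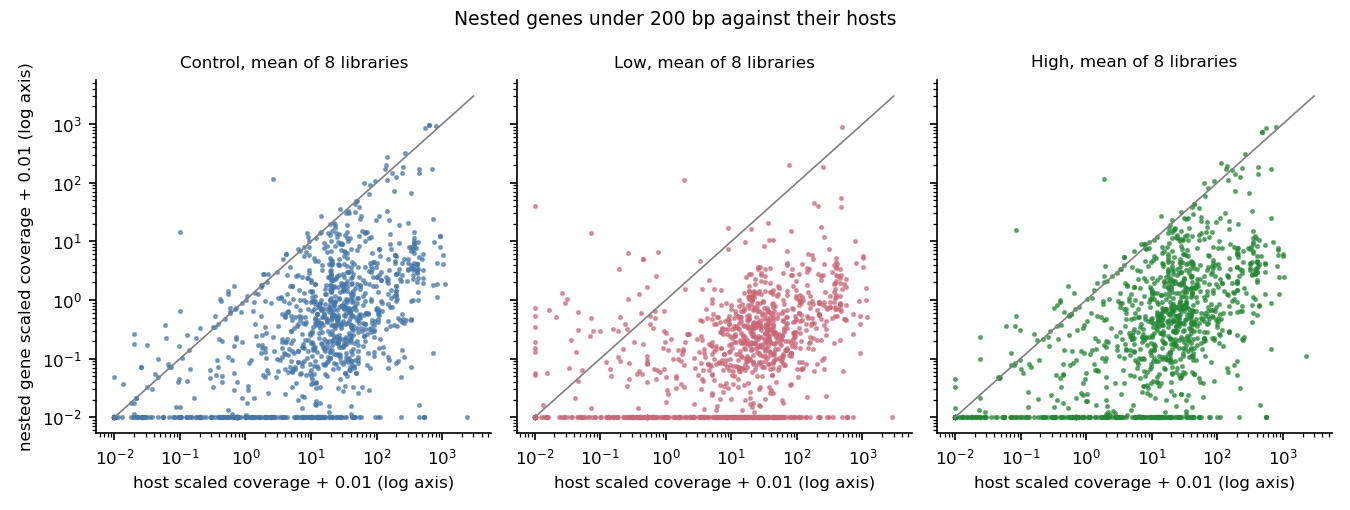
Scaled coverage of the nested genes under 200 bp (vertical log axis) against that of their host (horizontal log axis), as means of 8 libraries, in Control, Low and High, with a small constant added to show genes at 0. Each point is 1 nested gene and the grey line marks equal levels. Points that lie near or above the line at high host levels in Control and High are mostly absent from that region in Low.

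Genes with a mean scaled coverage of at least 1 over the 24 libraries were tested with limma on log2(scaled coverage + 1), which understates changes of low genes, and 15644 reference genes passed, among them 584 nested ones. Of all genes tested, 4.88% were lower and 1.23% higher in Low than in Control at an adjusted p under 0.05, together 6.11%. Among the nested genes, 221 of 584 were lower (37.8%) and 5 were higher (0.856%). The short ones gave 176 lower and 4 higher of 343, with a median log2 fold change of -1.28, and the longer ones 45 lower and 1 higher of 241, with a median of -0.05. Over all genes tested the median was 0.06. Log2 fold changes and adjusted p below are for Low against Control unless another comparison is named. The filter bears on these shares, because 196 of the 343 short and 34 of the 241 longer genes had a mean under 1 in Low and passed through the other groups. Without libraries 56 to 62 the count of lower nested genes was 113 (75 short and 38 longer), of which 111 were among the 221. That fit keeps Low 63 and 64 as the only Low libraries. Without Low 63 and 64 instead, more short nested genes were called lower than the 176 over all libraries. With the exact Wilcoxon rank-sum test 120 nested genes were called, all lower, against 372 of all 15644 genes tested. With only Low and Control in the fit the short count was 109. The share over all genes is not given here for the counts of 113 and 109.

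The share of lower genes varied with length in genes of both kinds. Of nested genes tested under 100 bp, 88 of 188 were lower in Low than in Control, and of those of 100 to under 150 bp 76 of 133, of 150 to under 200 bp 12 of 22, of 200 to under 500 bp 22 of 56, of 500 to under 2000 bp 9 of 41 and of 2000 bp or more 14 of 144. In the same bins the genes nested on neither strand gave 78 of 144, 22 of 81, 11 of 48, 59 of 276, 52 of 895 and 280 of 13163. Under 100 bp the shares were 46.8% and 54.2%, and at 2000 bp or more 9.72% and 2.13%. The filter bore unequally on both sets. Under 100 bp, 105 of the 188 nested and 46 of the 144 other genes had a mean under 1 in Low. At 2000 bp or more these were 9 of 144 and 194 of 13163. The shares of both sets are therefore not like for like. Genes under 200 bp nested in an opposite-strand gene gave 12 lower and 13 higher of 52 tested. The differences between these sets were not tested.

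**Figure D3:**
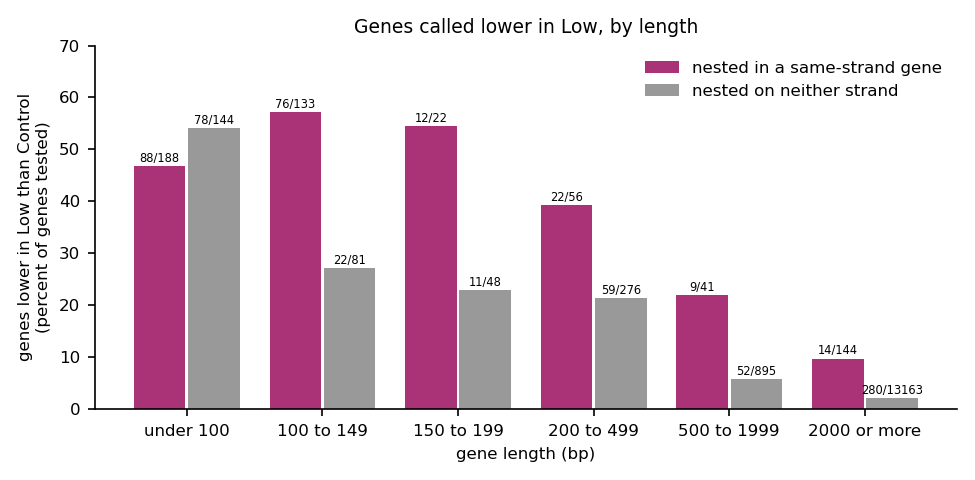
Percent of genes tested that were lower in Low than in Control at a limma adjusted p under 0.05, by gene length, for genes nested in a same-strand gene and for genes nested on neither strand. Numbers above the bars give genes called over genes tested. The nested share is 46.8% under 100 bp and 9.72% at 2000 bp or more. Both sets differ in the share of genes with a mean under 1 in Low, so their bars are not like for like.

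By class, 35 of the 137 nested microRNAs were tested and 26 were lower and 1 was higher in Low. For the small nucleolar and Cajal body RNAs under 200 bp, 41 of 75 were tested and 19 were lower and 0 higher. Clone names gave 82 lower and 1 higher of 148 tested short genes, genes with no name 39 lower and 2 higher of 86, and other small structured RNAs 8 lower and 0 higher of 30. Among the longer nested genes 33 of 91 clone names and 7 of 104 gene symbols were lower. Low values that lay wholly below the Control values, together with an adjusted p under 0.05, were found for 1.44% of all genes tested, and for 71 of the 343 short and 36 of the 241 longer nested genes. By name these nested genes included 18 microRNAs and 1 gene of the small nucleolar and Cajal body class. They also included 3 U3 genes, which were classed with the other small structured RNAs and are described below. The reverse, with every Low library above every Control library, was found for 0.0703% of all genes tested and for 0 nested genes.

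Among the microRNAs, a first set was near 0 in every Low library and present in every Control library. Mir935 (91 bp, chr1:64330549-64330639, minus strand) lies in Cacng8, which encodes an auxiliary subunit of AMPA-type glutamate receptors. It ran from 90.6 to 124 in Control (median 102), from 0.274 to 0.529 in Low (median 0.432) and from 82.9 to 125 in High (median 113). Low and Control did not overlap, and Mir935 fell by 6.22 ± 0.09 (SE) on the log2 scale in Low (adjusted p = 1.69e-26). Cacng8 itself had 93.1 ± 8.72 in Control and 92.7 ± 11.4 in Low, and it did not pass the test (adjusted p = 0.960). Mir6321 in Rufy3, a gene for a protein of neuronal polarity, was 22.8 to 49.3 in Control, against 0.0833 to 1.13 in Low and 30.2 to 42.2 in High. Its log2 fold change was -4.98 ± 0.14 (adjusted p = 6.02e-20), with Rufy3 at 53.9 ± 9.09 in Control and 59.2 ± 6.19 in Low. The microRNA therefore stood at 71.0% of its host in Control and 0.419% in Low.

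Further microRNAs of that set were Mir671 in Chpf2, Mir3583 in Dnajc8, Mir678 in Prmt2 and Mir3542 in Ddx41, and Mir3577 in Tmem94 was close to it, with 0.0618 to 0.667 in Low 57 to 62 but 2.20 and 1.61 in Low 63 and 64. Mir671 (chr4:7108738-7108835, minus strand) went from a median of 34.9 in Control to between 0.217 and 0.396 in Low, and had a median of 30.9 in High. Mir3583 (chr5:150732605-150732694, plus strand) had medians of 23.0, 0.0797 and 20.5. For these 5 microRNAs the Low values did not overlap the Control values, and the log2 fold changes lay between -4.70 for Mir671 and -3.39 for Mir3577. None of their 5 hosts passed the test between Low and Control. Chpf2 and Prmt2 encode a chondroitin synthesis factor and a protein arginine methyltransferase, and Ddx41 encodes an RNA helicase.

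A second set of microRNAs was high or low by library and not by group. Mir3064 (67 bp, chr10:94982051-94982117, minus strand) lies in Ddx5, an RNA helicase gene that takes part in splicing and in microRNA processing. In Control it ran from 6.17 to 203 with a median of 166, where 6.17 was library 56 and the next lowest was 127. In Low it ran from 0.00249 to 167 with a median of 0.00424, where Low 63 had 167 and Low 64 had 141. High had 105 to 184. The level in Low 63 and 64 was thus within the range of Control 49 to 55. Mir186 in Zranb2, a splicing factor gene, was at 0 in Control 56 and in Low 57 to 62, and at 26.1 and 21.8 in Low 63 and 64, against a Control median of 26.0 and a High median of 22.6. Over all libraries both passed the test between Low and Control (log2 fold change -5.01 ± 1.06, adjusted p = 0.00429, and -2.96 ± 0.77, adjusted p = 0.0210). The hosts did not move with them, since Ddx5 was 445 ± 62.3 in Control and 467 ± 49.1 in Low and Zranb2 was 156 ± 14.6 and 150 ± 7.53. Mir2985 in Gria2, the gene of an AMPA receptor subunit, was in between, with 88.2 to 185 in Control, 0.131 to 1.16 in Low 57 to 62, and 53.2 and 38.3 in Low 63 and 64.

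**Figure D4:**
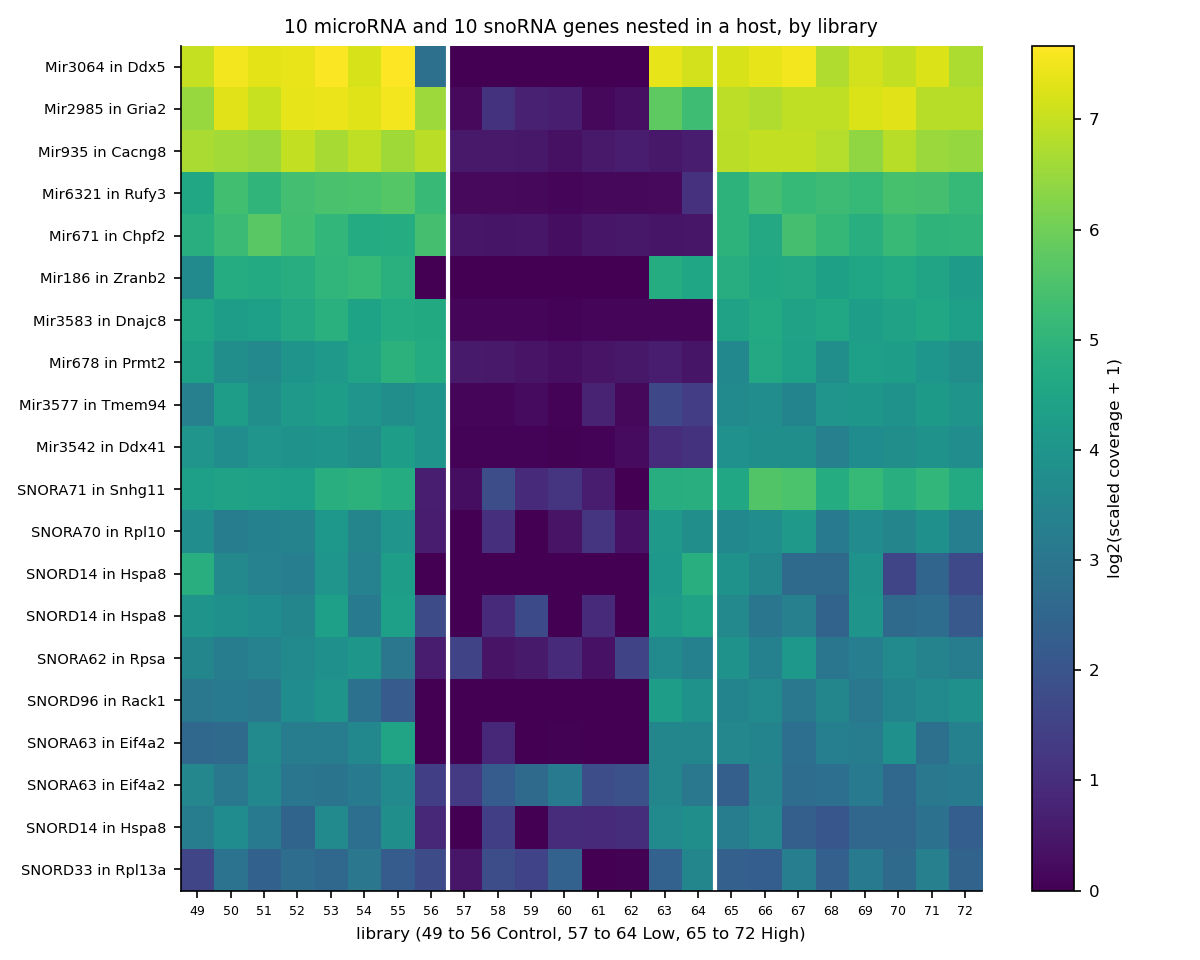
Level of the 10 nested microRNA and 10 nested snoRNA genes with the highest mean, as log2(scaled coverage + 1), in each library. Rows name the nested gene and its host, columns are libraries, and white lines separate Control, Low and High. Mir935, Mir671 and Mir3583 are near 0 in every Low library, whereas Mir186 and SNORD96 are at 0 in Control 56 and Low 57 to 62 and present in Low 63 and 64.

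Of the 10 snoRNAs with the highest means most were high or low by library in the same way, but SNORD33 in Rpl13a and a SNORA63 gene (ENSRNOG00000056834) overlapped more. SNORD33 was 2.38 in Control 56, within the 2.04 to 7.31 of Control 49 to 55, and up to 4.36 in Low 57 to 62, while that SNORA63 gene was 1.46 to 7.86 in Low 57 to 62, against 6.69 to 11.4 in Control 49 to 55. SNORA71, a box H/ACA snoRNA in the noncoding host Snhg11 (chr3:154866941-154867073, plus strand), was 0.554 in Control 56 and 19.0 to 29.7 in the other Control libraries. It was 0 to 2.49 in Low 57 to 62, 26.6 and 27.7 in Low 63 and 64, and 23.3 to 47.2 in High. Its log2 fold change of -2.27 ± 0.67 between Low and Control passed the test (adjusted p = 0.0444), but was 0.25 without libraries 56 to 62. SNORA70 in Rpl10, SNORA62 in Rpsa and 1 of the SNORA63 genes in Eif4a2 also passed over all libraries (log2 fold changes -1.88, -1.62 and -1.94, adjusted p = 0.0425, 0.0405 and 0.0439), while the other SNORA63 gene did not (-0.59, adjusted p = 0.297). Rpl10 and Rpsa encode ribosomal proteins and Eif4a2 a translation initiation helicase. Leaving out libraries 56 to 62 keeps Low 63 and 64 as the only Low libraries. The change was then 0.34 for SNORA70 and 0.17 for SNORA63, so the direction of the called decrease turned. For SNORA62 it was -0.02. SNORD96 in Rack1 was listed at 0 in Control 56 and in all of Low 57 to 62, and had 18.2 and 14.2 in Low 63 and 64 against a Control median of 7.31. It did not pass the test (adjusted p = 0.116).

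Hspa8, which encodes the constitutive heat shock protein of the Hsp70 family, holds 3 copies of SNORD14. The copy at chr8:44992796-44992879 (plus strand) was 0 in Control 56 and in Low 57 to 62, with a Control median of 10.3, 16.2 and 27.9 in Low 63 and 64, and a High median of 5.27. Of the 3 copies 1 passed the test (ENSRNOG00000061656, log2 fold change -2.06, adjusted p = 0.0328), and its change was 0.47 without libraries 56 to 62. Hspa8 had 913 ± 96.2 in Control and 1036 ± 113 in Low. Every one of the named snoRNAs was under 10% of its host in Control, from 0.886% for a SNORD14 copy to 6.87% for SNORD96. Summed over the 75 short snoRNA genes, the level was 191 to 264 in Control 49 to 55, 28.4 in Control 56, 8.30 to 25.1 in Low 57 to 62, 247 to 253 in Low 63 and 64, and 168 to 262 in High. For the 137 microRNAs the sum was 558 to 838 in Control 49 to 55, 487 in Control 56, 15.6 to 25.9 in Low 57 to 62, 282 to 335 in Low 63 and 64, and 595 to 760 in High. The snoRNA sum in Low 63 and 64 thus lay inside or near the range of Control 49 to 55, whereas the microRNA sum lay below it.

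Among the other small structured RNAs the most abundant did not pass the test. The 7SK gene in LOC685699 (318 bp), a copy of the RNA that holds back the elongation factor P-TEFb, was 131 to 237 in Control, against 114 to 277 in Low and 101 to 189 in High. A 5S_rRNA gene in AC239701.4 had 116 ± 38.5 in Control and 113 ± 37.8 in Low. Both U1 genes, in Tex14 and Kcnh3, and both Metazoa_SRP genes, in Neto2 and Zfp622, had log2 fold changes between -0.16 and 0.07 with adjusted p of 0.655 or more. U1 pairs with the 5′ splice site and Metazoa_SRP is the RNA of the signal recognition particle. These families have many near-identical copies, so the level of a single copy is uncertain. The U6 gene in Rnf14 was lower in Low (log2 fold change -1.99 ± 0.58, adjusted p = 0.0390), with 0 in Control 56 and Low 57 to 62 and 15.2 and 8.29 in Low 63 and 64. Its change was 0.31 without libraries 56 to 62.

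The largest decreases among short nested genes were in genes with clone names or none that lay in highly expressed hosts. With 1 added before the log, the size of a fall to near 0 mainly follows the Control level. This ranking is therefore largely a ranking by Control level. AABR07030921.1 (84 bp, chr10:109519483-109519566, minus strand) lies 349 bases from the 3′ end of Actg1, which encodes gamma-actin. It was 715 to 1078 in Control with a median of 954, 0.209 to 0.501 in Low with a median of 0.392, and 784 to 959 in High with a median of 880. Low did not overlap the other groups, and the log2 fold change was -9.39 ± 0.07 (adjusted p = 1.13e-32). Actg1 had 801 ± 100 in Control, 918 ± 101 in Low and 778 ± 59.9 in High, and did not pass the test (adjusted p = 0.150). AC120071.1 (106 bp, chr5:152326537-152326642, plus strand) in Ftl1, the ferritin light chain gene, went from a median of 312 to 0.721, with Ftl1 at medians of 274 and 292. AC109100.1 in Psmb5, a proteasome subunit gene, went from 160 to 0.538, with Psmb5 at 133 and 142, and AABR07052795.2 in LOC100361457 from 170 to 0.268. In High the medians of these 3 were 314, 173 and 170.

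A 70 bp gene with no name in a Metazoa_SRP gene and AABR07064716.3 in Rn7sl1 had 977 ± 331 and 976 ± 331 in Control and 0.458 ± 0.0808 and 0.457 ± 0.0808 in Low. Their values agreed within 5% in every library, as did those of 7 further pairs of nested genes, 4 of them SNORD24 or SNORD36 copies in Rpl7a. Such pairs are uncertain as single genes, and whether they share reads was not tested. Some abundant short genes did not pass the test. AC135443.1 in Rpl19, a gene for a ribosomal protein, was 718 to 1065 in Control, against 807 to 1179 in Low and 747 to 1016 in High (adjusted p = 0.685), at 158% of its host in Control. AABR07072283.1 in a Metazoa_SRP gene had 276 ± 91.4 in Control and 203 ± 24.8 in Low (adjusted p = 0.273), while its host was lower in Low (144 ± 47.6 and 75.7 ± 11.5, adjusted p = 0.00462).

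Both sets can be counted among the 79 short nested genes with a Control mean of at least 10. In 60 of these every one of Low 57 to 62 was under 10% of the median of Control 49 to 55. Of the 60, 38 were also under 10% in Low 63 and 64 while Control 56 kept at least 50% of that median, and 12 had the reverse, with Low 63 and 64 at 50% or more and Control 56 under 10%. The limits were chosen after the values were seen, so these counts are a description. The 38 comprised 23 clone names, 9 microRNAs and 6 genes with no name, and none carried a snoRNA name. What kind of RNA the genes with clone names or no name encode was not analysed. The 12 comprised 4 clone names, 5 genes with no name, 2 microRNAs and 1 snoRNA, among them genes in Ddx5, Nop56, Srrm2 and Psd. In Control the 38 stood at a median of 79.1% of the level of their host and the 12 at 21.3%. The hosts of the 38 had log2 fold changes between -0.71 and 0.24 in Low, and 1 of these 38 hosts, Nup58, passed the test. The 10 hosts of the 12 had changes between -3.31 and 0.18, and 2 of them, Rabggtb and AC113837.7, passed. Of the longer nested genes with a Control mean of at least 10, 12 followed the first pattern and 1 the second.

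Large decreases among the nested genes of 200 bp or longer were also of the first kind. AABR07024498.1 in Zmiz1, AABR07049466.1 in Pde4b and AABR07031184.2 in Npc1 went from Control medians of 79.9, 55.6 and 40.5 to 0.426, 0.445 and 0.515 in Low. Zmiz1 is a transcription coregulator, Pde4b a cyclic AMP phosphodiesterase and Npc1 a cholesterol transporter, and none of the 3 hosts passed the test. AC098563.1 in Igf2, the insulin-like growth factor gene, went from 98.1 ± 33.5 to 0.0696 ± 0.136, and Igf2 itself had 51.9 ± 17.0 in Control and 25.7 ± 18.4 in Low (adjusted p = 0.0558). The shorter of both Rnase4 genes, which encode a secreted ribonuclease, had 32.3 ± 12.4 in Control, 0.305 ± 0.382 in Low and 40.6 ± 12.6 in High. The Rnase4 gene that holds it had 5.37 ± 1.98, 6.14 ± 2.33 and 6.83 ± 2.10.

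Among the longer nested genes with a symbol, Snrpn had the highest Control mean, and it fell in Low. Snrpn encodes a Sm protein of the spliceosome and shares an imprinted bicistronic transcript with Snurf, its host here (chr1:195074330-195096460, minus strand). Snrpn was 707 to 859 in Control with a median of 831, 196 to 349 in Low with a median of 250, and 723 to 905 in High with a median of 819. Low lay wholly below both other groups, with a log2 fold change of -1.67 ± 0.08 (adjusted p = 2.01e-14). Snurf was lower by less, with 734 to 879 in Control, against 564 to 847 in Low and 746 to 938 in High (log2 fold change -0.30 ± 0.06, adjusted p = 0.00389). The 847 was Low 57, and the next highest Low library had 696. Other abundant nested genes showed no such drop. Cox6a1 in Gatc, which encodes a subunit of cytochrome c oxidase, had 606 ± 74.1 in Control, 624 ± 74.4 in Low and 604 ± 57.3 in High. LOC103692716 in RGD1305298 had 643 ± 45.6 and 674 ± 68.8, and Atp6v1g2 in RT1-CE7, a subunit of the vesicular proton pump, had 335 ± 20.4 and 350 ± 48.3. These 3 genes stood at more than 10 times the level of their hosts.

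Besides Rnase4 and Snrpn, 5 of the 7 lower genes with a symbol were Lenep, Moap1, Gpr173, Vps25 and Taf9, named after their values were seen. Moap1, a modulator of apoptosis (chr6:126620602-126622532, minus strand), was 83.8 to 112 in Control, against 6.92 to 26.2 in Low and 88.9 to 117 in High. Its host Gon7, a subunit of the KEOPS complex, was 27.2 to 34.9 in Control, against 25.9 to 34.0 in Low and 28.9 to 36.1 in High. Moap1 changed by -2.52 ± 0.16 (log2, adjusted p = 9.20e-12) and Gon7 did not pass the test (adjusted p = 0.487). Taf9, a subunit of TFIID, and its host Ak6, an adenylate kinase, were both lower in Low. Taf9 had 53.5 ± 4.65 in Control and 21.2 ± 6.29 in Low, and Ak6 had 53.0 ± 4.15 and 25.5 ± 2.60 (adjusted p = 7.47e-08 and 3.73e-12). The reverse case was Gdf1, a growth factor gene of the TGF-beta family, in the ceramide synthase gene Cers1 (chr16:20845576-20860767, minus strand). Gdf1 was 60.1 to 82.5 in Control, against 67.1 to 87.5 in Low and 65.7 to 80.8 in High (adjusted p = 0.693), while Cers1 was 59.8 to 81.9, 0.985 to 3.07 and 65.4 to 80.3 (log2 fold change -4.76 ± 0.11, adjusted p = 1.48e-21).

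**Figure D5:**
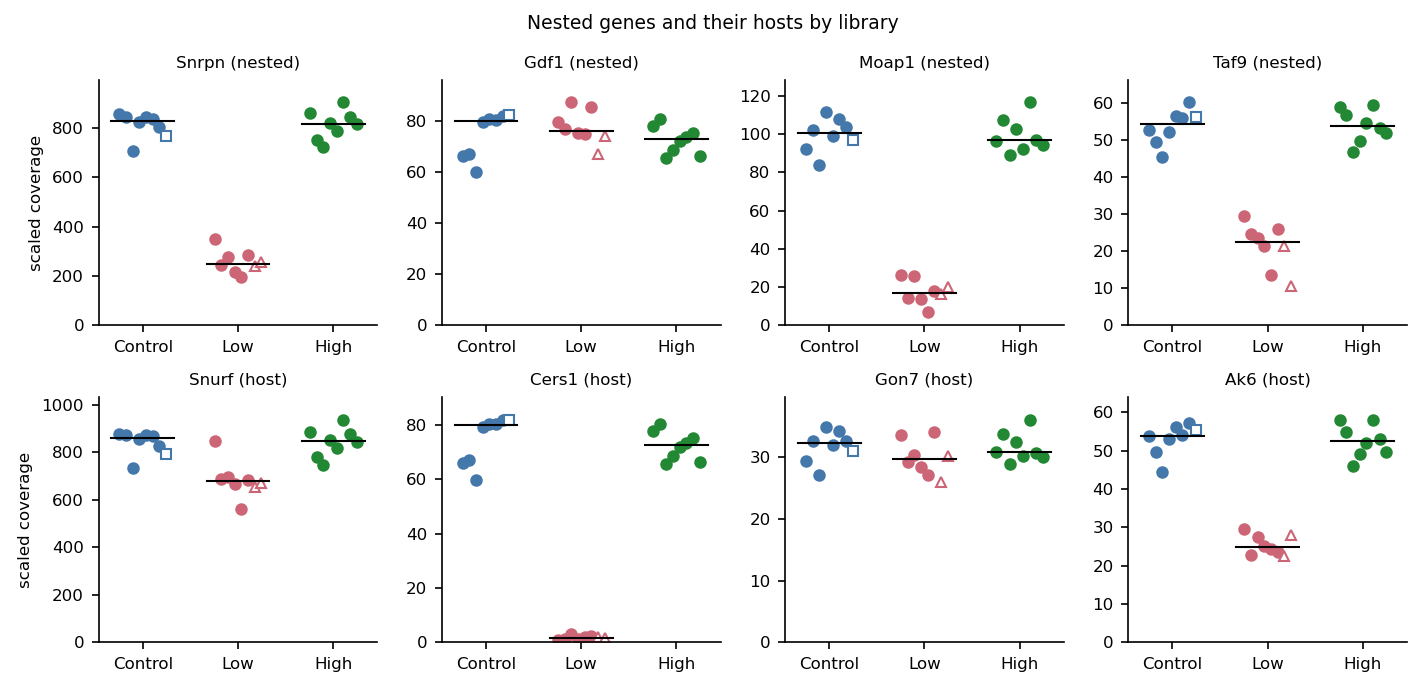
Scaled coverage of Snrpn, Gdf1, Moap1 and Taf9 (top row) and of their hosts Snurf, Cers1, Gon7 and Ak6 (bottom row) in each library, by group. Lines are group medians, the open square is Control 56 and the open triangles are Low 63 and 64. Snrpn and Moap1 are low in every Low library. Gon7 overlaps Control, while Snurf overlaps it only through Low 57 (847) and is at most 696 in the other Low libraries. Gdf1 overlaps Control while Cers1 is 0.985 to 3.07 in Low, and Taf9 and Ak6 are both low.

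Pairs of nearly the same span gave the closest view of how nested and host gene were listed. In 37 pairs the nested gene covered 90% or more of the length of its host, and in 12 of them one or the other had a mean of at least 1. In 11 of the 12, nested gene and host agreed within 5% in every Control library and in every High library where either was above 0. In Low 0 of the 12 pairs did so in every library, and 0 of 75 pair values above 0 lay within 5%, against 82 of 90 in Control and 88 of 96 in High. On group means, the nested gene was under 10% of its host in 4 pairs in Low and the host was under 10% of the nested gene in 5, and neither occurred in Control or High. By library, 8 of the 12 pairs had either gene under 10% of the other in at least 4 Low libraries. The exception in all groups was Acbd5 in AABR07028887.1 (46.5 and 6.94 in Control).

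U3 snoRNA genes show this most plainly. U3 takes part in the first cuts of the ribosomal RNA precursor, and 3 of its copies on chromosome 10 (215 bp, the first at chr10:74765385-74765599, plus strand) each lie in a clone-named gene that is 1 base longer. In Control each of these U3 genes was 1.77 to 4.10 (median 2.77) and its host 1.76 to 4.08 (median 2.75). In Low all 3 U3 genes were listed at 0 in every library, and their hosts were 0.444 to 3.86 (median 1.59). In High the first copy was 1.03 to 3.94 and its host 1.03 to 3.92. The copies had the same Control values and are uncertain as single genes. For AC113837.8 in AC113837.7 it was the host that was near 0 in Low, with 13.7 and 13.6 in Control, and 3.34 and 0.186 in Low for nested gene and host.

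Host genes differed little as a group. Of 1024 host genes tested that were not nested themselves, 53 were lower and 11 higher in Low than in Control, or 5.18% and 1.07%, against 4.88% and 1.23% of all genes tested, with a median log2 fold change of 0.07. Without libraries 56 to 62 the number called was 33, and the share over all genes in that fit is not given here. The largest decreases with a symbol after Cers1 included Cfb, Shank2 and Gsto2. Gsto2, a glutathione transferase gene, had 4.35 ± 0.775 in Control and 0.820 ± 0.170 in Low, while the nested Gsto1 had 103 ± 5.90 and 106 ± 15.1. The same held for Mphosph8, which encodes a chromatin-silencing protein, with 50.2 ± 2.79 and 56.3 ± 7.07 in a clone-named host that went from 34.0 ± 1.72 to 1.58 ± 0.603. All 28 ribosomal protein hosts were tested, and 1 was higher (Rps3a, log2 fold change 0.25) and 1 lower (Rpl13a, log2 fold change -0.41). Ncl, the gene of nucleolin and a host of SNORA75 and SNORD82, was higher by 0.20 on the log2 scale, and so was Nop53, a ribosome biogenesis factor gene that holds a gene with no name.

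In Low 5 nested genes were higher than in Control, all named here after their values were seen, and for each of them the Low and Control values overlapped. They were Mir6333 in Stpg1, AABR07036312.1 in Sbno1, Tor1aip2 in the longer Tor1aip2 gene and genes with no name in Ppip5k1 and Tsr1. AABR07036312.1 was 0.0501 to 1.42 in Control, against 0.619 to 4.35 in Low and 0 to 1.06 in High (log2 fold change 1.11 ± 0.21, adjusted p = 0.00101). Mir6333 was 0 to 2.66 in Control and 0 to 12.3 in Low (log2 fold change 1.63 ± 0.48, adjusted p = 0.0408). Its highest Control value was in library 56, and Low 63 and 64 were at 0. The gene with no name in Ppip5k1 (ENSRNOG00000041411) had 32.9 in Control 56 and at most 0.35 in Control 49 to 55, and 17.6 to 25.4 in Low 57 to 62 and 0 in Low 63 and 64. Tor1aip2, a gene of the nuclear envelope, had 19.1 ± 2.55 in Control and 22.6 ± 1.55 in Low (log2 fold change 0.24, adjusted p = 0.0373). Without libraries 56 to 62 the count was 1, and without any one of Control 49 to 55 or of Low 57 to 62 it was between 1 and 3.

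Clusters of nested genes in 1 host did not behave alike. The 26 genes in Sfmbt2, which include Mir466b-1, Mir466b-4 and Mir466d of a rodent microRNA cluster, were silent here, with 22 at 0 in all libraries, 0 tested, and Sfmbt2 itself at a mean of 0.735 in Control. Taf1d held 9 genes with clone names or no name, all tested, and 5 were lower in Low. Their summed means were 29.9 in Control, against 8.62 in Low and 32.6 in High, while Taf1d had 20.0, 18.7 and 17.9. In Rpl7a, 8 SNORD24 and SNORD36 genes had summed means of 14.2, 5.81 and 18.4, with 2 lower in Low, and Eif4a2 held 6 genes with 58.2, 21.4 and 58.4, of which 4 were lower. The 12 genes in Arhgap45 include neighbouring protein-coding genes such as Ptbp1 and Cfd, and 7 were tested with 0 called and summed means of 219, 234 and 213. Of the 11 genes in Ighm, the immunoglobulin heavy chain locus, 7 were at 0 in all libraries and 1 was tested. The major urinary protein hosts LOC298111 and Mup4 held 12 and 10 genes, of which 0 and 1 were tested.

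High against Control gave no call. With limma, 0 of the 584 nested genes tested passed at an adjusted p under 0.05 against 0% of all genes tested, and with the exact Wilcoxon rank-sum test the number was also 0. At an unadjusted p under 0.05 limma gave 19 nested genes (3.25%, against 2.11% of all genes tested) and the exact Wilcoxon test gave 26, against 5.67% of all genes tested. The log2 fold changes of the nested genes ran from -0.60 to 0.97, with a median of 0.01. In Mir935, for example, the change was under 0.01 in size with an SE of 0.09, and in SNORA71 it was 0.94 ± 0.67 (adjusted p = 0.999).

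Low against High, in which Control libraries enter only the estimate of the spread, gave 283 lower and 12 higher nested genes of 584, where 6.39% of all genes tested were lower and 5.3% higher. At an unadjusted p under 0.05 limma gave 390 of the 584, where 29.1% of all genes tested passed. The short genes gave 237 lower and 5 higher of 343 and the longer ones 46 lower and 7 higher of 241. For Mir935 the Low to High change was -6.22 ± 0.09, for Mir3064 -5.30 ± 1.06 (adjusted p = 0.00202), for SNORA71 -3.22 ± 0.67 (adjusted p = 0.00258) and for Snrpn -1.67 ± 0.08 (adjusted p = 1.88e-14). This comparison and that with Control share the Low libraries. Without libraries 56 to 62, which leaves Low 63 and 64, 110 nested genes were lower and 0 higher. The share over all genes in that fit is not given here. The count of 12 was 23 without Control 49 or without Low 61, and 7 without Low 59 or without Low 62.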

How the data were processed

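Per the labels and the study's methods, poly(A)-selected stranded libraries of rat frontal cortex were sequenced, and FastQC, Trimmomatic, TopHat2 and StringTie were run by the authors (versions not given in the sources used here). The deposited tables list, per gene, coverage (a signal, the mean read depth per base, not scaled), FPKM and TPM. The TPM column that the authors deposited sums to 1000000 in Low tables only, and in Control and High tables it is a score on another scale. Here coverage was summed per gene ID, divided by the reference sum and multiplied by 1000000. A gene was nested where each of its rows lay inside a row of another gene. Genes with a mean of at least 1 (15644) were tested with limma 3.58.1 (trend, robust, R 4.3.3) on log2(value + 1), all 3 groups in 1 fit, two-sided, Benjamini-Hochberg adjusted p under 0.05. Exact Wilcoxon rank-sum tests used Python 3.11.15 with scipy 1.17.1. Both were tested on simulated data. Per length class, the named genes are the 6 largest decreases and increases without overlap and the 6 highest Control means, with the 10 highest of each kind of small RNA; others are marked in the text, and 1 gene that the rule names is not reported here. The nested genes, lists and tests were chosen with earlier results of these data known. Nothing in the labels ties the rats to litters or batches. The p-values measure the spread between libraries, with 1 per rat. Differences between rats and in how each table was made cannot be told apart in that spread. The study's methods give the same number of reads per library both as a minimum and as a limit, and reads per gene are not in the tables. At the median, a tested short nested gene had 722 aligned bases per Control library and a longer one 53744. The set of libraries 56 to 62 came from the data and marks no known condition or batch. Alternatives that leave out these libraries or Low 63 and 64, use them alone or merge spans were chosen after seeing the data. Others changed the filter, pseudocount, scaling, unit, test, length limit and libraries. Assembled loci were not used here.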

Additional observations from a re-analysis of the deposited data

Results flagged for a closer look

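Of 174 sets of 8 libraries examined, 19 held a library far from the others by Dixon's test at the 95% level, where chance would give about 8.7. By summed reference coverage divided by 1000000, Control 51 (2.82) and Low 60 (3.07) lay above the rest of their groups, which reached 2.03 and 2.05. Control 51 also had the lowest percent of coverage in nested genes of 200 bp or longer (0.733%, others from 0.802%), and in Control 49 the number of longer nested genes at 50% or more of their host was 50 (others 43 to 45). Control 56 had 151 short nested genes with a level of at least 1 (others 350 to 417), and the same library was low for Mir3064 (6.17) and SNORA71 (0.554) and high for AC098563.1 (173). Low 60 was the lowest Low library for AC120071.1 (0.446), AABR07052795.2 (0.158), AC109100.1 (0.318) and Mir671 (0.217), all near 0 in that group. These values were divided by the sum of the library, which was the highest in Low 60. They are therefore not separate from its high sum, and unscaled levels of these genes were not compared. Low 57 was the highest for AC135443.1 (1179) and Cox6a1 (796), and Low 64 for Mir6321 (1.13) and SNORD33 (10.4). AABR07031184.2 was highest in Control 49 (52.8), and Mir3542 stood apart in Control 55 (18.6) and in High 68 (9.24).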

How the results depend on the processing

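The count of 221 nested genes lower in Low than in Control was 116 with a minimum mean of 5, which tests fewer genes, 120 with libraries 56 to 62 as a covariate, 113 without them and 120 with the exact Wilcoxon rank-sum test, and 173 to 288 when 1 library was left out. The count of 5 higher genes was 2 with a minimum mean of 5, 1 without scaling, 1 when libraries 56 to 62 were a covariate, 1 without them and 1 with only Low and Control in the fit, 0 with the Wilcoxon test, 8 when scaled without nested, host and mitochondrial genes, 129 on FPKM and 39 on TPM, and 1 to 7 when 1 library was left out. Over all genes tested, the median change between Low and Control moved from 0.06 (log2) to 0.53 on FPKM and 0.17 on TPM. Short lower genes (176) became 83 with a minimum mean of 5, 79 with the covariate, 75 without libraries 56 to 62, 281 without Low 63 and 64, 109 with only Low and Control, 80 with the Wilcoxon test and 88 with a length limit of 100 bp, and 130 to 242 when 1 library was left out. Longer lower genes (45) became 133 with the limit of 100 bp, and 42 to 47 when 1 library was left out. Genes lower in Low than in High (283) became 132 with a minimum mean of 5, 185 on FPKM, 121 with the covariate, 110 without libraries 56 to 62 and 169 with the Wilcoxon test (247 to 325 with 1 library left out). Genes higher in Low than in High (12) became 4 without scaling, 7 with median-of-ratios scaling, 128 on FPKM, 40 on TPM, 1 with the covariate, 0 without libraries 56 to 62 and 4 with the Wilcoxon test (7 to 23 with 1 library left out). Called hosts (64) became 40 with a minimum mean of 5, 41 without scaling, 97 when scaled without nested, host and mitochondrial genes, 900 on FPKM, 342 on TPM, 36 with the covariate, 33 without libraries 56 to 62 and 34 with the Wilcoxon test (49 to 75 with 1 library left out). The median difference of the short nested to host log2 ratio between Low and Control was -0.65 with a pseudocount of 0.1 in place of -0.22, and the short percent in Low was 0.382% without libraries 56 to 62 in place of 0.228%. Within libraries 56 to 62, where Control is 1 library chosen from the data and assumed to vary like the Low ones, the counts were 83 lower and 0 higher nested genes, 59 short and 24 longer lower ones and 11 hosts, and they support no call. High against Control gave 0 nested calls under every alternative run. Shares over all genes tested are not given in this section for the counts under these alternatives.

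Among the named genes, 597 values under an alternative kept direction and side of the threshold, 28 newly passed it, 40 no longer passed it and 53 changed sign between Low and Control. With libraries 56 to 62 as a covariate the log2 fold change was 0.22 for SNORA71, 0.18 for SNORA70, 0.084 for SNORA62, 0.15 and 0.27 for the SNORA63 genes, 0.42 and 0.25 for SNORD14 genes, 0.60 for SNORD96, 0.041 for SNORD33, 0.049 and 0.40 for the 5S_rRNA genes, 0.20 and 0.44 for the U6 genes, -0.0013 for U1 in Tex14, -0.032 for AC135443.1 and -0.025 for Cox6a1. Without libraries 56 to 62 it was 0.25 for SNORA71, 0.34 for SNORA70, 0.17 and 0.0074 for the SNORA63 genes, 0.65, 0.47 and 0.46 for the SNORD14 genes, 0.93 for SNORD96, 0.46 for SNORD33, 0.41 and 0.60 for the 5S_rRNA genes, 0.31 and 0.68 for the U6 genes, 0.30 and 0.13 for the Metazoa_SRP genes, -0.014 for AC135443.1 and -0.0082 for LOC103692716. Without Low 63 and 64 it was -0.038 for 7SK in LOC685699 and -0.12 and -0.089 for the U1 genes. On FPKM it was 0.13 for AABR07072283.1, 0.46 for 5S_rRNA in AC239701.4 and 0.33 and 0.25 for the Metazoa_SRP genes, and on TPM 0.055 for that 5S_rRNA gene. With median-of-ratios scaling it was -0.017 for Cox6a1, -0.0060 for Atp6v1g2, -0.046 for 7SK and -0.045 for U1 in Tex14, and without scaling -0.021 for 7SK and -0.025 for U1 in Tex14. When 1 library was left out it ran from -0.0092 (without Low 57) to 0.089 for Cox6a1, from -0.078 (without Low 60) to 0.10 for 7SK, from -0.13 to 0.056 (without Low 57) for 5S_rRNA in AC239701.4, from -0.18 to 0.045 (without Low 57) for Metazoa_SRP in Neto2, from -0.12 (without Control 49) to 0.12 for U1 in Tex14 and from -0.017 (without Low 63) to 0.16 for U1 in Kcnh3. The cause of these changes was not tested. No paired analysis was possible because the groups share no replicate number. The tables give coverage and not reads per gene, which leaves the counting error of genes of low coverage unknown.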
